A study of Mus musculus with 9 samples.

Results

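The motile cilia genes examined here were every gene whose symbol joins a number to Dnah, Dnaic, Dnaaf, Cfap, Rsph, Drc or Tekt, together with Foxj1, Hydin, Ccdc39, Ccdc40, Spag6, Spag16 and Spag17. This rule took 62 of the 34745 genes in the expression table and used no measured value. All 62 had at least 1 count in 1 library, and 52 had enough counts to be tested. The 10 that were not tested were Cfap53, Cfap58, Cfap221, Dnah3, Dnah14, Dnah17, Rsph6a, Rsph14, Tekt3 and Dnah2os, an antisense RNA to Dnah2 that the name rule also takes.

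Ependymal cells line the central canal of the spinal cord and carry motile cilia, whose beating moves cerebrospinal fluid. The beat comes from dynein arms on the outer microtubule doublets of the axoneme, and the radial spokes, the central pair apparatus and the nexin-dynein regulatory complex control it. Foxj1, a forkhead transcription factor, switches on the genes of motile cilia, and RFX factors act on many of the same promoters.

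Spinal cord RNA of mice was sequenced in 3 libraries at day 0. After the cord was cut fully across at T9, 3 libraries were sequenced at day 3 and 3 at day 21. The titles of the day 0 group carry no day, and it was taken as day 0 from the series design. The labels used here do not state strain, sex, age, the length of cord taken or whether day 0 cords were operated on. Nor do they state that each library is its own animal, so a p-value here reflects only how much these libraries scatter, and that scatter may be technical. Libraries held 14299679 to 24022923 counted fragments. Day 21 replicate 2 stood apart from its group, with a mean correlation of 0.939 with the other day 21 libraries, against 0.961 and 0.965 for those, and a sample weight of 0.0583 when limma estimated one weight per library. Day 0 replicate 1 had a weight of 0.354, and the other 7 libraries had weights of 1.02 to 2.03.

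Most motile cilia genes were scarce in whole cord RNA. Levels are FPKM, counted fragments scaled to gene length and to the library's total. Over all 9 libraries 5 genes averaged at least 10 FPKM, namely Cfap20 at 21.3, Foxj1 at 18.6, Cfap36 at 14.8, Tekt5 at 14.7 and Rsph3a at 13.2. A further 15 lay between 1 and 10 FPKM, and 42 lay under 1 FPKM, 11 of them under 0.1 FPKM. The median motile cilia gene had 0.490 FPKM, against 1.41 FPKM over the 23736 genes detected in any library. Of the 5 most abundant, Cfap20 is also found in primary cilia, Cfap36 is expressed in many tissues and Tekt5 is best known from sperm flagella in the mouse. Summed over the 62 genes, the level was 121 to 126 FPKM at day 0, 121 to 124 FPKM at day 3 and 137 to 182 FPKM at day 21. The highest day 21 sum was that of replicate 2, and the other day 21 sums were 142 and 137 FPKM. With scaling to library totals, as in FPKM, the median log2 fold change of all tested genes at day 21 against day 0 was 0.14. In whole tissue, fewer cells of a type and less RNA per cell cannot be told apart.

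Promoter windows from RefSeq on mouse build GRCm38.p6, running from 250 bases before to 50 bases after a gene's start, were found for 51 of the 62 genes and are described because RFX and forkhead factors are known regulators of this gene group. The letters GTTGC followed after 3 to 5 bases by GCAAC, an inverted repeat of the kind RFX dimers bind, were found in 10 of the 51 windows, which is 19.6%, against 0.438% of all 32851 windows. Both these letters and this spacing were chosen after the windows were seen, so the contrast between these shares is not a test. Of the 10 windows, 3 are those of the Dnah7 copies. The stricter form first searched, GTTNCC followed after 0 to 3 bases by GGNAAC, was in 0 of the 51 windows and in 0.804% of all windows. The single site GTTGCC, which can overlap either repeat, was in 19 windows, or 37.3%, against 12.5% of all windows. The forkhead core TGTTTAC was in 4 windows, or 7.84%, against 3.65% of all windows, namely those of Cfap43, Cfap20, Dnah17 and Tekt3. All letters were searched on both strands, and a match describes the letters and is not a binding site. The 10 stretches with the inverted repeat are shown because 4 of them belong to genes called higher at day 21 and the 3 Dnah7 copies carry the same repeat; capitals mark the repeat.
Cfap44 (chr16:44394757-44394800, plus strand): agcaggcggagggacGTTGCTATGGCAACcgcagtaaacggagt
Dnah7a (chr1:53706814-53706856, minus strand): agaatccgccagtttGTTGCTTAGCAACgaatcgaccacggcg
Dnah7b (chr1:46066814-46066856, plus strand): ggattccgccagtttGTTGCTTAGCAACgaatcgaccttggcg
Dnah7c (chr1:46425434-46425476, plus strand): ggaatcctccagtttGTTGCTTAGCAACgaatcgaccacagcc
Dnah6 (chr6:73221640-73221682, minus strand): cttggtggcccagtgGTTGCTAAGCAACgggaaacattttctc
Dnaic2 (chr11:114727371-114727413, plus strand): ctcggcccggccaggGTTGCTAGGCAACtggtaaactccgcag
Hydin (chr8:110266941-110266984, plus strand): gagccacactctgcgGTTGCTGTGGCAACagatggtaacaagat
Rsph3b (chr17:6948320-6948362, minus strand): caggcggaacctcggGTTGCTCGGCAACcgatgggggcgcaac
Tekt2 (chr4:126325690-126325732, minus strand): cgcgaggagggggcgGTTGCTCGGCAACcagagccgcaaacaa
Tekt4 (chr17:25471539-25471581, plus strand): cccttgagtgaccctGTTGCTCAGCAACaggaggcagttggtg
The stretches of Dnah7a, Dnah7b and Dnah7c hold the same 13 letters. Of the 11 motile cilia genes called higher at day 21 than at day 0, 10 had a window and 4 of those held the inverted repeat. The whole windows of Dnah7b, called higher at day 21, and of Cfap43, called higher at both days, are given for context. In Dnah7b the capitals mark the single site and the inverted repeat, and in Cfap43 they mark the forkhead core read on the opposite strand. The RefSeq start of Cfap43 lies inside the locus that the table gives for this gene.
Dnah7b promoter window (chr1:46066603-46066902, plus strand): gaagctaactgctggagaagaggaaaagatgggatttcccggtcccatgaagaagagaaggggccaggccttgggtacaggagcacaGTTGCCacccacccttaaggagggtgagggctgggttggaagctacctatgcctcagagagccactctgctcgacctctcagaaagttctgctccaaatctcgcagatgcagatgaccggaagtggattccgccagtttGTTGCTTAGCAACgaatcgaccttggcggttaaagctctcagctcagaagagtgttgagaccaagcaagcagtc
Cfap43 promoter window (chr19:47837312-47837611, minus strand): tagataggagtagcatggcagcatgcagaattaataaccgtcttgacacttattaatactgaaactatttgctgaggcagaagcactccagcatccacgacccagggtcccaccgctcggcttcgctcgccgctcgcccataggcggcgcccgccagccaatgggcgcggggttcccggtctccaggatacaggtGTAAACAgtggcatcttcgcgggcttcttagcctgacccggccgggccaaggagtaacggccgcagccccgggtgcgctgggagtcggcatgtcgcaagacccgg

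At day 3 a few motile cilia genes changed, in both directions. Tekt5, Cfap61, Cfap57, Spag6, Dnah2 and Cfap97 were lower than at day 0, and Cfap43, Tekt4, Dnaaf5 and Rsph3b were higher. The largest of these changes were a log2 fold change of 1.63 ± 0.19 (SE) for Cfap43 and -1.45 ± 0.30 for Cfap61. Calls are at a Benjamini-Hochberg adjusted p under 0.05 over 16494 genes in edgeR's quasi-likelihood test with 3 libraries a group. Of the 52 tested motile cilia genes, 4 were called higher, or 7.69%, against 24.8% of all tested genes. The 6 called lower were 11.5%, against 19.5% of all tested genes. Their median log2 fold change was -0.11, against 0.01 over all tested genes. The FPKM of all 3 day 3 libraries lay above all 3 day 0 libraries for 12 of the 62 genes and below them for 15. The share of all genes apart in this way was not counted, so these numbers are not a result particular to motile cilia genes. Without day 21 replicate 2, which enters the fit's shared estimate of spread, 9 of 55 tested motile cilia genes were called higher and 13 lower. Shares of all tested genes in the refits are not given here. Such counts therefore show only how the calls depend on single libraries. Without day 0 replicate 3, day 3 replicate 2 or day 3 replicate 3, 3 were called lower.

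At day 21 the called changes against day 0 all ran upward. The 11 genes called higher included 4 inner dynein arm heavy chains, 2 of the 3 inner arm anchors, Cfap43 and Cfap44, the axonemal ruler Ccdc39, the radial spoke gene Rsph10b, the microtubule inner proteins Cfap45 and Cfap126, and Cfap36. Dnah12 had the largest log2 fold change, at 2.38 ± 0.67 (SE), and Cfap36 the smallest, at 0.73 ± 0.14. The 11 were 21.2% of the 52 tested, against 17.9% of all tested genes. None was called lower by edgeR, against 11.3% of all tested genes; 1 gene, Tekt5, was lower at an unadjusted p under 0.05, DESeq2 called 1 lower, limma with sample weights called 2 and limma on log2(FPKM + 1) called 0. Their median log2 fold change was 0.17, against 0.02 over all tested genes, and 39 of the 52 values were above 0. The FPKM of all 3 day 21 libraries lay above all 3 day 0 libraries for 20 of the 62 genes and below them for 0. The share of all genes apart in this way was not counted, so whether this number is unusual was not tested. FPKM is scaled to library totals. With that scaling the median log2 fold change of all tested genes was 0.14, against 0.02 with the scaling used for the calls. Without day 21 replicate 2, 16 were called higher and 1 lower, without day 0 replicate 1, 6 were called higher, and without day 0 replicate 2, 5 were called higher. Each of these refits tested 55 motile cilia genes, and shares of all tested genes in them are not given here.

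Set against day 3, 11 motile cilia genes rose and 2 fell at day 21. Cfap61, Cfap69, Cfap46, Cfap97, Cfap74, Cfap36, Tekt5, Rsph10b, Ccdc39, Dnah7a and Dnah7b were higher, and Dnaaf5 and Cfap43 were lower. The 11 called higher were 21.2% of the 52, against 11.7% of all tested genes, and the 2 called lower were 3.85%, against 16.1%. The median log2 fold change was 0.54, against 0.02 over all tested genes, and 42 of the 52 values were above 0. The 3 comparisons share libraries. Without day 21 replicate 2, 22 were called higher and 4 lower, and leaving out a day 3 library brought the number higher to between 3 and 5 and the number lower to 1. Without day 21 replicate 1, 6 were higher and 1 lower. Shares of all tested genes in these refits are not given here.

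**Figure D1:**
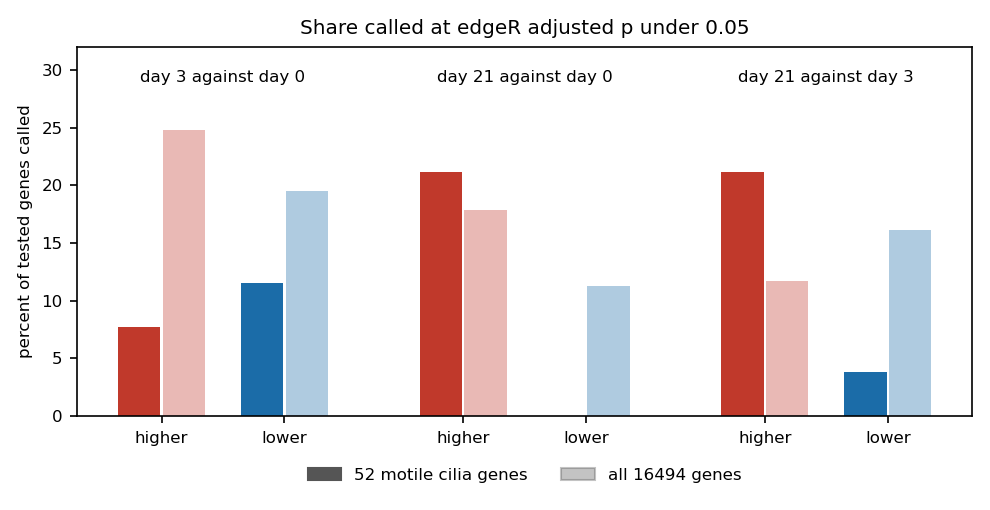
Percent of genes called higher (red) or lower (blue) at edgeR adjusted p under 0.05 in each comparison, for the 52 tested motile cilia genes (dark bars) and all 16494 tested genes (pale bars). At day 3 the dark bars, 7.69% and 11.5%, are below the pale ones, and at day 21 against day 0 no dark bar stands for lower.

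**Figure D2:**
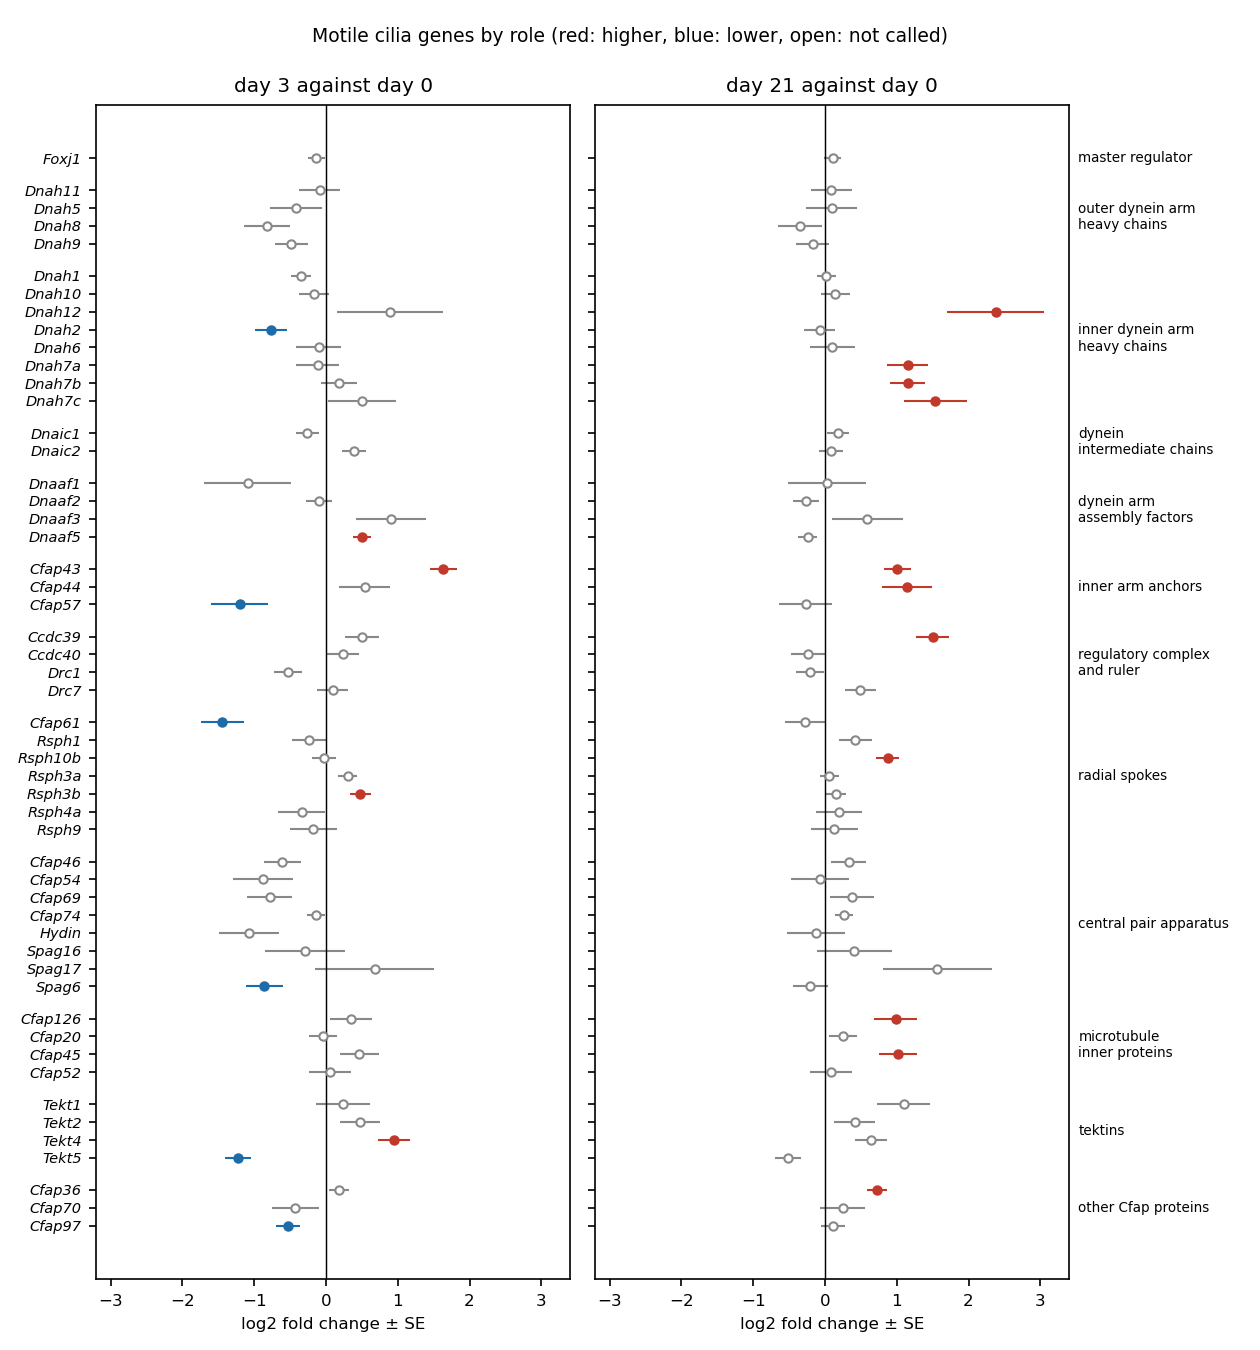
Log2 fold change ± SE of the 52 tested motile cilia genes, grouped by role, at day 3 against day 0 (left) and day 21 against day 0 (right); filled red and blue points are called higher and lower, open points are not called. At day 21 the 4 filled points among inner dynein arm heavy chains are Dnah12, Dnah7a, Dnah7b and Dnah7c, and no point is blue.

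Foxj1, the forkhead factor that switches on motile ciliogenesis, did not pass edgeR's test in any comparison, while limma voom with sample weights called it lower at day 3 than at day 0 and higher at day 21 than at day 3. It had 15.8, 18.5 and 19.2 FPKM in the day 0 libraries, 17.5, 16.8 and 16.2 FPKM in those of day 3 and 21.7, 22.0 and 19.5 FPKM in those of day 21. The day 3 values lay within the day 0 range, while each day 21 value lay above every day 0 and day 3 value. With scaling to library totals, as in FPKM, the median log2 fold change of all tested genes at day 21 against day 0 was 0.14. The edgeR log2 fold changes of Foxj1 were -0.14 ± 0.12 at day 3 and 0.11 ± 0.12 at day 21 against day 0, with edgeR adjusted p of 0.376 and 0.529. Foxj1 lies at chr11:116330704-116335399 on the minus strand (GRCm38).

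The outer dynein arm heavy chains, motors that set beat frequency, were low and edgeR called none of the 4 tested in any comparison. With limma voom sample weights Dnah5, Dnah8 and Dnah9 were called lower at day 3 than at day 0, and Dnah5 and Dnah9 higher at day 21 than at day 3. In edgeR, Dnah9 was also called lower at day 3 without day 3 replicate 1 or day 21 replicate 2, Dnah8 without day 0 replicate 3, and Dnah5 was called higher at day 21 than at day 3 without day 21 replicate 2. Dnah9 was the most abundant, with 0.350 ± 0.014 FPKM at day 0, 0.259 ± 0.072 at day 3 and 0.339 ± 0.072 at day 21 (SD, n = 3 each). Dnah5 averaged 0.168, 0.130 and 0.194 FPKM and Dnah11 averaged 0.153, 0.149 and 0.176 FPKM at days 0, 3 and 21. All 4 log2 fold changes at day 3 were below 0, with a median of -0.45, and at day 21 against day 0 the median was -0.04.

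The inner dynein arm heavy chains, motors that shape the bend, gave 4 of the 11 calls at day 21 against day 0. These 4 are 50% of the 8 tested, against 17.9% of all tested genes called higher. Among the 4, 3 are the Dnah7 copies, which share part of their sequence. Dnah7b had 0.218, 0.254 and 0.225 FPKM at day 0, 0.240, 0.242 and 0.335 at day 3 and 0.619, 0.379 and 0.682 at day 21. All day 21 values were above all earlier ones, and the lowest was that of replicate 2. Its log2 fold change at day 21 was 1.15 ± 0.25 against day 0 (edgeR adjusted p = 0.00791) and 0.98 ± 0.25 against day 3 (edgeR adjusted p = 0.0176). Dnah7a had 0.159, 0.123 and 0.172 FPKM at day 0, 0.131, 0.174 and 0.130 at day 3 and 0.341, 0.251 and 0.512 at day 21. The groups of day 21 and day 0 did not overlap, and the log2 fold change was 1.15 ± 0.29 (edgeR adjusted p = 0.0160), a call lost without day 0 replicate 2 (0.0632). Dnah7c was rarer, with 5 to 9 counts in each day 0 library and 27, 10 and 18 counts at day 21, and a log2 fold change of 1.54 ± 0.44 (edgeR adjusted p = 0.0288) that was lost as a call in 8 of 20 alternatives. The 3 Dnah7 copies lie on chromosome 1, and of the 100-base stretches of their transcripts 19.96% in Dnah7a, 23.5% in Dnah7b and 24.9% in Dnah7c also occur in transcripts of other genes, so that counting could have split their reads.

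Dnah12, another inner arm heavy chain, was high in day 21 replicates 1 and 3 and low in replicate 2. It had 59, 9 and 50 counts at day 21, against 7, 6 and 13 counts at day 0, and the replicate 2 value lay within the day 0 range. Its call was lost in 7 of 20 alternatives, with adjusted p up to 0.0989, and without day 21 replicate 2 its log2 fold change was 2.86. Dnah2, which pairs with another heavy chain in the f dynein, fell at day 3 to 0.226, 0.192 and 0.235 FPKM, against 0.358, 0.339 and 0.372 FPKM at day 0. These groups did not overlap, and the log2 fold change was -0.77 ± 0.23 (edgeR adjusted p = 0.0219), a call lost in 4 of 20 alternatives. Dnah1, the most abundant heavy chain of all, averaged 0.588 ± 0.026 FPKM at day 0, 0.478 ± 0.060 at day 3 and 0.650 ± 0.024 at day 21 (SD, n = 3 each) and was not called. However, 4 of 20 alternatives called Dnah1 lower at day 3 than at day 0, and 4 of 20 called it higher at day 21 than at day 3. Dnah6 averaged 0.285, 0.275 and 0.331 FPKM at days 0, 3 and 21.

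The intermediate chains Dnaic1 and Dnaic2, which anchor outer arm motors, were not called. However, 4 of 21 alternatives called Dnaic2 higher at day 3 than at day 0. Dnaic1 was called higher at day 21 than at day 3 in 8 of 21, and lower at day 3 than at day 0 in 1 of 21. Dnaic1 averaged 2.19 ± 0.08 FPKM at day 0, 1.90 ± 0.08 at day 3 and 2.72 ± 0.57 at day 21, and Dnaic2 averaged 1.30 ± 0.07, 1.76 ± 0.08 and 1.50 ± 0.32 (SD, n = 3 each). Among the assembly factors, which preassemble dynein arms in the cytoplasm, Dnaaf5 was the one with a call. It rose at day 3 to 4.44, 5.39 and 4.82 FPKM, against 3.53, 3.23 and 3.19 FPKM at day 0. The 2 groups were fully apart, with a log2 fold change of 0.51 ± 0.13 (edgeR adjusted p = 0.00943). At day 21 Dnaaf5 had 3.13, 2.76 and 3.26 FPKM, which overlapped day 0 and lay below every day 3 value, with a log2 fold change of -0.75 ± 0.13 against day 3 (edgeR adjusted p = 0.00269). Dnaaf2 averaged 2.42, 2.34 and 2.19 FPKM and Dnaaf3 averaged 0.704, 1.36 and 1.15 FPKM at days 0, 3 and 21. For Dnaaf2, 32.7% of exon bases overlap a gene on the opposite strand and 36.9% of its 100-base stretches occur elsewhere, and its level is uncertain.

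Cfap43 and Cfap44, partners that tether inner arm dyneins to the doublet, were both called at day 21, and Cfap43 also at day 3; whether the 2 genes' changes differ was not tested. Cfap43 had 0.369, 0.289 and 0.310 FPKM at day 0, 1.05, 0.918 and 1.16 FPKM at day 3 and 0.590, 0.652 and 0.888 FPKM at day 21. No 2 of the 3 groups overlapped. Its log2 fold change was 1.63 ± 0.19 at day 3 (edgeR adjusted p = 0.000123) and 1.01 ± 0.19 at day 21 (edgeR adjusted p = 0.00435) against day 0. The locus counted for Cfap43 differs from that of GENCODE M21. The length used for its FPKM was 11179 bases, against 7059 exon bases in GENCODE M21. Of those exon bases, 2.3% overlap Itprip on the same strand. Whether reads of other genes entered the Cfap43 count was not tested. Cfap44 had 0.334, 0.284 and 0.328 FPKM at day 0, 0.533, 0.432 and 0.463 at day 3 and 0.936, 0.347 and 0.986 at day 21, where replicate 2 was below all 3 day 3 values. It was called at day 21, at 1.14 ± 0.35 (edgeR adjusted p = 0.0370), and that call was lost in 11 of 20 alternatives, while without day 21 replicate 2 the value was 1.49. Cfap57, an inner arm adaptor, fell at day 3 to 0.269, 0.178 and 0.229 FPKM, against 0.616, 0.332 and 0.543 FPKM at day 0, at -1.20 ± 0.40 (edgeR adjusted p = 0.0348). The groups did not overlap, and the call was lost in 8 of 20 alternatives.

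Ccdc39 and Ccdc40 form together the ruler that sets the axonemal repeat, and Ccdc39 was called at day 21 while Ccdc40 was not. Ccdc39 had 0.361, 0.352 and 0.276 FPKM at day 0, 0.410, 0.542 and 0.497 at day 3 and 1.07, 0.732 and 1.25 at day 21. Each group lay wholly above the one before it, and the log2 fold change was 1.50 ± 0.23 at day 21 against day 0 (edgeR adjusted p = 0.00159), with 16.9% of its exon bases shared with Ttc14 on the opposite strand. Ccdc40 had 0.371, 0.474 and 0.424 FPKM at day 0, 0.464, 0.625 and 0.449 at day 3 and 0.495, 0.333 and 0.338 at day 21, with overlapping groups and a log2 fold change of -0.24 ± 0.23 (edgeR adjusted p = 0.487). Whether the changes of the 2 genes differ was not tested. Drc1 and Drc7, parts of the nexin-dynein regulatory complex that links neighbouring doublets, were not called. For Drc1 all 3 day 3 values lay below all 3 day 0 values, with edgeR adjusted p = 0.0517, and 9 of 21 alternatives called it lower. Drc1 averaged 1.82, 1.31 and 1.72 FPKM and Drc7 averaged 0.995, 1.097 and 1.52 FPKM at days 0, 3 and 21.

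Radial spoke genes, whose products carry signals from the central pair to the dyneins, gave 1 rise and 1 fall at day 3. Each is 14.3% of the 7 tested, against 24.8% of all tested genes called higher and 19.5% called lower. Rsph3b rose to 8.97, 9.26 and 9.30 FPKM at day 3, against 7.12, 6.64 and 5.31 FPKM at day 0, at 0.48 ± 0.15 (edgeR adjusted p = 0.0255), a call lost in 5 of 21 alternatives. The groups did not overlap, but Rsph3b shares 64.8% of its 100-base stretches with Rsph3a, and the 2 cannot be separated with confidence. Rsph3a averaged 14.8 ± 0.2 FPKM at day 3, against 11.6 ± 1.2 FPKM at day 0 (SD, n = 3 each), and was not called, though 3 of 21 alternatives called it higher. Cfap61, a spoke stump protein, fell to 0.0930, 0.119 and 0.0525 FPKM at day 3, against 0.211, 0.258 and 0.239 FPKM at day 0. Its day 3 values were all below its day 0 values, with a log2 fold change of -1.45 ± 0.30 (edgeR adjusted p = 0.00376), and at day 21 it was back within overlap of day 0 at 0.226, 0.162 and 0.244 FPKM.

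Rsph10b, a spoke head protein, was called at day 21 and not at day 3 against day 0. It had 1.18, 0.946 and 1.19 FPKM at day 0, 1.20, 1.02 and 1.17 at day 3 and 1.95, 2.55 and 2.16 at day 21. The day 21 values were above all others, with log2 fold changes of 0.87 ± 0.16 against day 0 (edgeR adjusted p = 0.00365) and 0.90 ± 0.16 against day 3 (edgeR adjusted p = 0.00361). Of the Rsph10b exon bases, 10.5% overlap Gm42421 on the same strand, and 8.13% of its 100-base stretches occur in that gene. Rsph1, also of the spoke head, had 6.92, 10.1 and 6.01 FPKM at day 21, against 4.96, 4.36 and 4.43 FPKM at day 3. It was not called, though 8 of 21 alternatives called it higher at day 21 than at day 3.

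Central pair genes were low, and edgeR called 1 of the 8 tested lower at day 3 than at day 0. That is 12.5%, against 19.5% of all tested genes. Of the 8 log2 fold changes 1 was above 0, and the median was -0.70. Without day 21 replicate 2, Cfap46, Cfap54, Cfap69 and Hydin were also called lower (edgeR adjusted p = 0.00410, 0.000581, 0.00261 and 0.00631). Cfap74, Spag16 and Spag17 were not called there. The share of all tested genes called in that refit is not given here. The summed level of the 9 genes was 3.32 ± 0.08 FPKM at day 0, 2.28 ± 0.11 at day 3 and 4.17 ± 0.98 at day 21 (SD, n = 3 each). Hydin, a giant projection protein, had 0.264, 0.366 and 0.342 FPKM at day 0, 0.205, 0.127 and 0.144 at day 3 and 0.294, 0.148 and 0.523 at day 21. All 3 day 3 values were below all 3 day 0 values, and the log2 fold change of -1.08 ± 0.42 missed the threshold (edgeR adjusted p = 0.0638). The gene that the table names Spag6 (ENSMUSG00000022783, chromosome 16), which encodes a central apparatus protein, is named Spag6l in GENCODE M21 and RefSeq, while the table gives the name Spag6l to another gene, ENSMUSG00000037708. It fell at day 3 to 0.330, 0.258 and 0.265 FPKM, against 0.571, 0.414 and 0.506 FPKM at day 0, at -0.86 ± 0.25 (edgeR adjusted p = 0.0217). That fall was lost in 5 of 20 alternatives, among them those without day 0 replicate 1 or 3 and without day 3 replicate 2 or 3. Spag16 and Spag17, partners of Spag6, averaged 0.127 and 0.0265 FPKM at day 0, 0.106 and 0.0460 at day 3 and 0.180 and 0.0890 at day 21 and were not called. At day 21, Cfap69, Cfap46 and Cfap74 were higher than at day 3, by log2 fold changes of 1.17, 0.94 and 0.40, and Cfap69 had 1.21, 0.552 and 1.23 FPKM against 0.299, 0.460 and 0.512 FPKM at day 3.

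Microtubule inner proteins, which line the inside of the doublets, were not called at day 3. Cfap45 had 0.571, 0.856 and 0.577 FPKM at day 21, against 0.287, 0.304 and 0.315 FPKM at day 0, and Cfap126 had 2.07, 4.64 and 2.16 FPKM against 1.43, 1.54 and 1.12 FPKM. Both pairs of groups were apart, with day 21 replicate 2 the highest, and the log2 fold changes were 1.02 ± 0.26 and 0.98 ± 0.29 (edgeR adjusted p = 0.0194 and 0.0338). The Cfap45 call was lost in 3 of 20 alternatives and that of Cfap126 in 7 of 21. The abundant Cfap20 averaged 19.3 ± 2.1 FPKM at day 0, 19.6 ± 0.8 at day 3 and 25.1 ± 7.9 at day 21 (SD, n = 3 each), with 34.3 FPKM in day 21 replicate 2, and was not called.

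Tektins, filaments along the doublet wall, moved in opposite directions at day 3. Tekt5 fell to 8.57, 8.22 and 9.75 FPKM at day 3, against 18.8, 20.5 and 20.3 FPKM at day 0, at -1.22 ± 0.18 (edgeR adjusted p = 0.000540). No values overlapped, and this was the most abundant gene of the 6 called lower. At day 21 it had 12.95, 20.3 and 12.5 FPKM, with replicate 2 inside the day 0 range, a log2 fold change of -0.51 ± 0.18 and edgeR adjusted p = 0.0586. Without day 21 replicate 2 the value was -0.76 and Tekt5 was called lower (edgeR adjusted p = 0.000210). Tekt4 rose to 1.95, 2.15 and 1.97 FPKM at day 3, against 0.897, 0.828 and 1.30 FPKM at day 0, a log2 fold change of 0.95 ± 0.22 (edgeR adjusted p = 0.00699). The 2 groups were apart. Tekt1 averaged 1.93 ± 0.89 FPKM at day 21, against 0.823 ± 0.212 FPKM at day 0 (SD, n = 3 each), and its edgeR adjusted p was 0.0507. For this comparison 10 of 21 alternatives called Tekt1 higher. Tekt2 averaged 0.746, 1.07 and 1.09 FPKM at days 0, 3 and 21 and was not called.

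Among the other Cfap genes, Cfap36, a protein that binds the small GTPase Arl3, had 17.0, 24.8 and 18.6 FPKM at day 21, against 10.96, 10.7 and 11.7 FPKM at day 0. All day 21 values were higher, with a log2 fold change of 0.73 ± 0.14 (edgeR adjusted p = 0.00454). Cfap97 fell to 1.68, 1.28 and 1.41 FPKM at day 3, against 1.96, 2.19 and 1.93 FPKM at day 0, at -0.53 ± 0.17 (edgeR adjusted p = 0.0314). That call was lost in 5 of 21 alternatives, and at day 21 Cfap97 had 2.50, 1.92 and 2.74 FPKM. Cfap70 averaged 0.234, 0.178 and 0.298 FPKM at days 0, 3 and 21 and was not called.

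**Figure D3:**
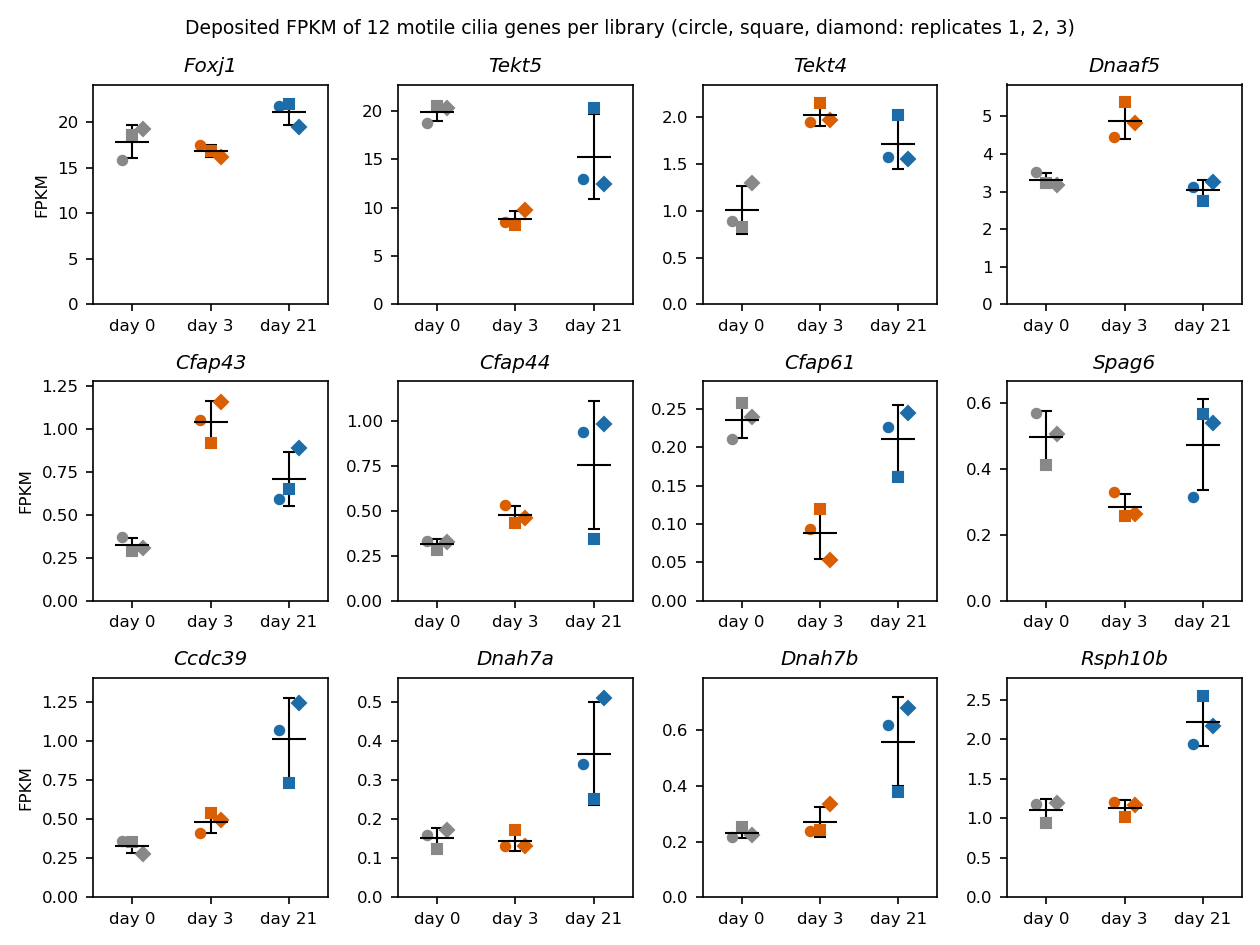
Deposited FPKM of 12 motile cilia genes in each library at day 0, day 3 and day 21 (circle, square and diamond are replicates 1, 2 and 3), with the mean and SD. Tekt5 and Cfap61 sit lowest at day 3, Dnaaf5, Tekt4 and Cfap43 highest, and Rsph10b separates only at day 21; day 21 replicate 2 is the lowest day 21 value of Cfap44, Dnah7b and Ccdc39.

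The difference between day 21 replicate 2 and replicates 1 and 3 varied with gene length. For all tested genes the median difference in log2 CPM was 0.37 in the shortest of 3 equal length classes, -0.04 in the middle and -0.43 in the longest. For motile cilia genes the medians were 0.42 over 16 short genes, 0.39 over 11 middle ones and -0.76 over 25 long ones, and 1 of those 25 was above 0. The Spearman correlation of length with this difference was -0.67 over 52 motile cilia genes and -0.48 over all 16494 genes, values that share their libraries and depth and carry no test. The long dyneins Dnah12, Dnah7a and Dnah7b and the ruler Ccdc39 were lower, and the shorter Cfap126, Cfap20 and Tekt5 higher, in this library than in the other day 21 libraries. The part of this in the day 21 calls was not tested. With a trend in gene length removed from each library, an alternative added after the data were seen, the number of genes called lower at day 3 was 10.

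**Figure D4:**
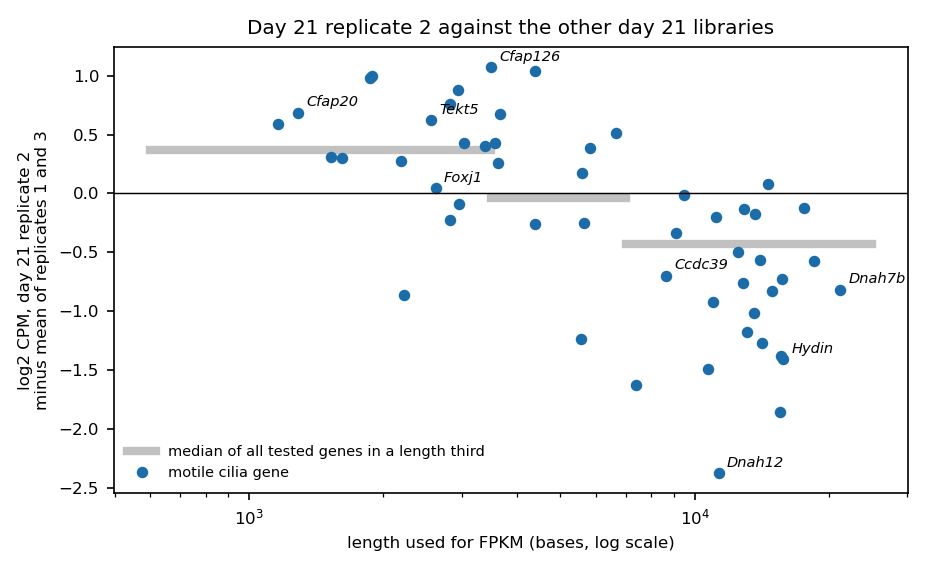
Log2 CPM of day 21 replicate 2 minus the mean of day 21 replicates 1 and 3 against gene length (log scale) for the 52 tested motile cilia genes (blue points), with medians of all tested genes in each of 3 length classes (grey bars). The grey bars lie at 0.37, -0.04 and -0.43, the motile cilia genes of the longest class have a median of -0.76, and Dnah12 lies lowest.

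Of 62 further axonemal genes outside the name rule, 54 were tested. Called at day 3 against day 0 were 4 as higher (7.41%, against 24.8% of all tested genes) and 9 as lower (16.7%, against 19.5%). At day 21 against day 0, 14 were higher (25.9%, against 17.9%) and 2 lower (3.7%, against 11.3%). Against day 3, 14 were higher at day 21 (25.9%, against 11.7%). Their median log2 fold changes were -0.21, 0.36 and 0.62 in these comparisons. Enkur, an axonemal linker, rose at day 21 to 1.36, 1.85 and 1.62 FPKM, against 0.542, 0.613 and 0.429 FPKM at day 0, a log2 fold change of 1.48 ± 0.21 (edgeR adjusted p = 0.000860). Mns1, a microtubule inner protein, rose at both days, by 1.01 ± 0.17 and 1.17 ± 0.17. Ccdc65 and Lrrc48, which belong to the nexin-dynein regulatory complex, were lower at both days, with log2 fold changes of -1.12 and -0.59 for Ccdc65 and of -1.19 and -0.62 for Lrrc48 at days 3 and 21. Of 39 genes of intraflagellar transport and the BBSome, which also serve primary cilia, 1 was higher (2.56%, against 24.8% of all tested genes) and 11 lower (28.2%, against 19.5%) at day 3 than at day 0. At day 21 against day 0, 3 were higher (7.69%, against 17.9%) and 5 lower (12.8%, against 11.3%). Against day 3, 13 were higher at day 21 (33.3%, against 11.7%). The motor subunits Kif3a and Kifap3 were among those that fell at day 3, by log2 fold changes of -0.86 and -0.94. Ift74, of the transport trains, was higher at both days, by 0.39 and 0.85.

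Of the 18 regulators of multiciliated cells, 13 were tested. At day 3 against day 0, 6 were higher (46.2%, against 24.8% of all tested genes) and 1 lower (7.69%, against 19.5%). At day 21 against day 0, 3 were higher (23.1%, against 17.9%). Those higher at day 3 were Rfx1, Rfx2, E2f4, E2f5, Tfdp1 and Plk4, of which E2f4, E2f5, Tfdp1 and Plk4 also act in the cell cycle. The 8 markers of dividing cells were all called higher at day 3 and summed to 0.591 to 0.809 FPKM at day 0, 21.5 to 22.3 at day 3 and 3.98 to 4.81 at day 21, and their part in the regulators' change was not tested. Rfx2 was higher at day 3 (0.83 ± 0.19, edgeR adjusted p = 0.00570) and at day 21 (0.59 ± 0.19, edgeR adjusted p = 0.0427). Rfx3, an activator of ciliary genes, had 0.937, 0.587 and 1.13 FPKM at day 21, against 0.462, 0.360 and 0.393 FPKM at day 0, and rose by 1.01 ± 0.24 (edgeR adjusted p = 0.0134). Mcidas and Gmnc, the earliest inducers of multiciliation, averaged at most 0.151 FPKM in any group and were not tested.

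Of 12 ependymal markers that are not axonemal, all were detected in each library, but in whole cord other cells also express several of them, such as S100b, Cd24a and Pltp, so their presence does not settle that the motile cilia transcripts come from ependymal cells. At day 3, 2 were higher (16.7%, against 24.8% of all tested genes) and 2 lower (16.7%, against 19.5%) than at day 0. At day 21, 4 were higher than at day 0 (33.3%, against 17.9%). Rarres2 was higher at day 3 (1.26 ± 0.34) and day 21 (1.39 ± 0.34), while Ccdc153 was lower at day 3 (-1.16 ± 0.30, edgeR adjusted p = 0.0130) and had 5.26, 9.88 and 4.77 FPKM at day 21. Of 8 genes that ependymal progenitors share with reactive astroglia, 7 were higher than day 0 at both days. That is 87.5%, against 24.8% of all tested genes at day 3 and 17.9% at day 21. Nes, an intermediate filament of progenitors, averaged 19.6 ± 1.1 FPKM at day 3 and 6.61 ± 0.90 at day 21, against 1.67 ± 0.30 FPKM at day 0 (SD, n = 3 each).

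Motile cilia also occur in choroid plexus and airway, and flagella in sperm. The choroid plexus list of 10 genes summed to 1.96 to 2.75 FPKM at day 0, 24.9 to 26.1 at day 3 and 5.79 to 5.98 at day 21, of which Aqp1, a water channel of many cell types, made 22.5 to 23.6 FPKM at day 3. Otx2 was at 0 in all libraries and Ttr, the defining transcript, was at most 0.330 FPKM. Of 14 airway secretory and sperm genes, 11 to 13 were at 0 in each library. Other tissue lists moved with the days: summed over 8 genes each, neuronal markers were 2488 to 2508 FPKM at day 0, 1226 to 1237 at day 3 and 1605 to 1764 at day 21. Myeloid markers were 41.5 to 44.6 FPKM at day 0, 707 to 717 at day 3 and 505 to 731 at day 21. At the same days fibroblast markers were 40.2 to 42.6, 616 to 618 and 299 to 359 FPKM, and skeletal muscle markers were 13.2 to 17.4, 6.10 to 6.54 and 107 to 180 FPKM. The part of these shifts in the motile cilia values was not tested.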

How the data were processed

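Paired-end poly-A libraries from mouse spinal cord were sequenced in 9 samples. The deposited table holds, per the file headers, 1 count column (whole numbers, not normalized) and 1 FPKM column per library; the authors' FPKM equals count over gene length and the library's total. Per the submitters' processing notes, HISAT2 and StringTie were used (no version given) with build GRCh38, although the samples are mouse; gene loci are those of GRCm38, and 48 of the 62 motile cilia genes have the coordinates of GENCODE M21. Strand use in counting is not stated by any source used here.

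The counts were tested with edgeR 4.0.16 in R 4.3.3 (TMM scaling, filterByExpr, robust quasi-likelihood, all 9 libraries, 6 residual degrees of freedom, common biological coefficient of variation 0.205), with Benjamini-Hochberg adjustment over 16494 genes, called under 0.05, two-sided. SE is the log2 fold change over the square root of F. limma 3.58.1 and DESeq2 1.42.0 were alternatives. Precision is limited by counts, from 14299679 to 24022923 per library. Genes were named by a rule on role, level and call (the 7 single genes, the 3 highest by mean FPKM in each role, and called genes of at least 1 FPKM), with other called genes added after their values were seen. The members and lists were chosen with earlier results of these data known. Tests were checked on simulated data. There the share of false calls was above the threshold at day 3 and at day 21 against day 0, and most of the smallest changes were missed.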

Additional observations from a re-analysis of the deposited data

Results flagged for a closer look

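Flagged were 13 motile cilia genes whose change from day 0 differed between day 21 and day 3 at an edgeR adjusted p under 0.05. In the same fit this difference is the day 21 against day 3 comparison itself. The 13 are the 11 higher and 2 lower genes already given for it, and no further test was made. They are 25% of the 52 tested, against 27.8% of all tested genes. The log2 fold change at day 21 minus that at day 3 was -0.75 for Dnaaf5 and -0.62 for Cfap43, and it was positive for the other 11. It was 0.40 for Cfap74, 0.55 for Cfap36, 0.64 for Cfap97, 0.71 for Tekt5, 0.90 for Rsph10b, 0.94 for Cfap46, 0.98 for Dnah7b, 1.004 for Ccdc39, 1.17 for Cfap61, 1.17 for Cfap69 and 1.27 for Dnah7a. Rsph10b and Dnaaf5 kept their call in every alternative, and the other 11 lost it in at least 1.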

How the results depend on the processing

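Under 21 alternatives no motile cilia call changed direction; over single genes 2914 values kept their side of the threshold, 153 gained a call and 113 lost one. Of the calls, 5 of 10 at day 3, 5 of 11 at day 21 and 2 of 13 at day 21 against day 3 held in every alternative that tested the gene. The number of motile cilia genes tested was 52 in the main fit, 21 with a filter of 1 FPKM and 62 with no count filter. At day 3 the number lower was 3 with limma on log2(FPKM + 1), 20 with limma voom sample weights, 10 with no count filter, 2 with a filter of 1 FPKM, 12 with only 2 groups and 10 with the length trend removed; the number higher was 9 with sample weights and 8 with only 2 groups. At day 21 against day 0 the number higher was 18 with sample weights, 5 with the 1 FPKM filter and 7 with only 2 groups; the number lower was 1 with DESeq2, 2 with sample weights, 1 with no filter and 1 with the length trend removed. At day 21 against day 3 the number higher was 28 with sample weights and 5 with the filter; the number lower was 1 with limma on log2(FPKM + 0.1), 4 with sample weights, and 1 each with upper quartile scaling, library totals, the filter and only 2 groups. Leaving out 1 library gave 3 to 9 higher and 3 to 13 lower at day 3, 5 to 16 higher and 0 to 1 lower at day 21, and 3 to 22 higher and 1 to 4 lower at day 21 against day 3. With the replicate block 4 were higher and 4 lower at day 3, 11 and 0 at day 21, and 11 and 2 at day 21 against day 3. With each group's mean removed, same-numbered libraries correlated at -0.146 to 0.107 and unlike-numbered ones at -0.218 to 0.227. With 3 libraries a group, these values can neither show nor exclude that the numbers pair the samples. The cause of the shifts in these counts was not tested. Shares of all tested genes under the alternatives are not given here, so the counts are not results particular to motile cilia genes. Genes under 0.1 FPKM and those with few counts, such as Dnah7c, limit what this depth can show.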
